A study of Mus musculus with 48 samples.

Results

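Keratin-associated proteins, the Krtap genes of the mouse, were described across skin domains and stages of the hair cycle. The members were all rows of the expression tables whose gene name begins with Krtap, chosen by name alone, and they were 57 of the 46983 genes listed. They fell into 27 subfamilies by the number after the name. In the study, whole skin of C57BL/6 mice had been sequenced from chin, dorsal and ventral domains at 6 stages, which were competent and refractory telogen, catagen, and the early, mid and late parts of anagen, together with telogen skin and the cartilage/muscle complex of the ear pinna. No genotype, treatment or age was given for these samples in the sources used here, and nothing said whether libraries came from separate mice, so that p-values measure only the spread between libraries. The skin table held 43 libraries in 18 groups of 2 or 3, and the ear table held 7 libraries, of which the 2 of dorsal competent telogen were those of the skin table. Values were FPKM, fragments per kilobase of transcript scaled to the sequencing depth, and the depth estimated from their steps ranged from 6724116 to 26041516 fragments per skin library, with a median of 13019610.

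The hair shaft is built from keratin filaments embedded in a matrix of keratin-associated proteins, which are cross-linked to the filaments through disulfide bonds. By amino acid content these proteins are grouped into high sulfur, ultra-high sulfur and high glycine-tyrosine classes, and they are made late in differentiation, in the cortex and cuticle of the shaft, after the hair keratins have begun to be expressed. In the hair cycle, anagen is the growth phase in which the shaft is produced, catagen is the regression of the follicle and telogen is its rest. Competent telogen is the rest phase from which follicles re-enter growth, and refractory telogen is the early rest phase in which they resist it.

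The genes lay in 5 clusters of the mm10 genome. Chromosome 16 held 25 members within 960 kb (chr16:88610705-89571183), chromosome 11 held 23 within 444 kb (chr11:99550130-99993994), chromosome 7 held the 5 genes of subfamily 5 (chr7:142174535-142304594), and chromosomes 10 and 1 held 2 each (chr10:77720599-77827095 and chr1:83041524-83061921). By the codons of their annotated reading frames, with 30% cysteine setting apart ultra-high sulfur and 35% glycine plus tyrosine setting apart high glycine-tyrosine, 15 members were high glycine-tyrosine, 21 high sulfur and 16 ultra-high sulfur. A further 4, Krtap5-2, Krtap5-3, Krtap28-10 and Krtap28-13, passed both limits and were kept as a class of their own. Krtap19-9a was annotated as a processed pseudogene and had no class. High sulfur was the remainder and had no lower limit on cysteine, which made up 4% of the codons of Krtap15. Krtap7-1, with 9.2% cysteine and 29.9% glycine plus tyrosine codons, was thus counted as high sulfur. All high glycine-tyrosine genes were in the chromosome 16 cluster. Several members share sequence with another gene, so that their fragments can be divided wrongly between copies: 89.0% of the 31-base words of Krtap4-13 were also in Gm11554, and 44.9% of those of Krtap31-1 were in Krtap31-2. The annotated spans of Krtap14 and Krtap15 overlap on opposite strands, so that fragments from any exon stretch in common cannot be assigned without strand. Whether their exons overlap was not looked at. Krtap10-4 and Krtap12-1 lie within Tspear.

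The promoters of genes that the results turn on are shown because members of the chromosome 16 cluster went opposite ways at refractory telogen. Each run is the 120 bases before the RefSeq start (GRCm38.p6), 5′ to 3′ on the gene's own strand. Capitals mark 4 motifs on either strand, with overlaps allowed. The first is the TATA box, which positions the polymerase and was searched as TATAAA. The core bound by RUNX factors was searched as TGTGGT. For HOXC13, a regulator of hair keratin genes, the letters were TTTAC. For the LEF/TCF factors of the WNT pathway the letters were CTTTG, which read CAAAG on the opposite strand, as in Krtap19-1. A TATA box on the opposite strand reads TTTATA, as in Krtap16-3. In Krtap21-1 most of the bases shown, with its TATAAA, lie within the annotated span of the gene (chr16:89403218-89403868). The windows, in the order printed, are chr16:89205741-89205860 and chr16:89083904-89084023 on the plus strand, then chr16:89420112-89420231, chr16:89403775-89403894, chr16:88869411-88869530 and chr16:88962874-88962993 on the minus strand.
Krtap20-2: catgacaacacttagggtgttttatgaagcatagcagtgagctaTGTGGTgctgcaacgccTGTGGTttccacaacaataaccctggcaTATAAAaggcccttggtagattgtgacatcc
Krtap6-3: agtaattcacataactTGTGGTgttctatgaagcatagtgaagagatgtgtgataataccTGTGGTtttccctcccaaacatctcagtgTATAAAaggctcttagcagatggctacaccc
Krtap6-2: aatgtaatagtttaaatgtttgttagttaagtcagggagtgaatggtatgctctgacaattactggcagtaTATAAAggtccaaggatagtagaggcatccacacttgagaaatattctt
Krtap21-1: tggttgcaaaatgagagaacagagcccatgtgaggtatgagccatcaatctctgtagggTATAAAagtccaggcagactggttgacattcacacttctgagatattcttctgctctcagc
Krtap19-1: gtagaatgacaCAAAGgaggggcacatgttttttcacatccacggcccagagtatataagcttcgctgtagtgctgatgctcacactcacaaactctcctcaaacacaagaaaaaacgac
Krtap16-3: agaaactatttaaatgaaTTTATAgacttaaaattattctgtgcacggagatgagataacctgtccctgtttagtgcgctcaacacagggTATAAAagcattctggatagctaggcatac
Over the 250 bases before the start, 51 members had a RefSeq promoter. TATAAA was found in 41 of them (80.4%) against 13% of all 27025 promoters of the same length, and between positions -45 and -16, where a TATA box acts, in 62.7% against 2.36%. TTTAC was in 51% against 28.6%, CTTTG in 58.8% against 48.8% and TGTGGT in 23.5% against 14.2%. Krtap20-2 and Krtap6-3 each held TGTGGT more than once within the bases shown. Krtap22-2, which is not printed, also held it. From catagen to refractory telogen that gene fell in the chin, was not called in ventral skin and rose in dorsal skin. These matches describe the letters only.

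Before the results, 3 facts on the libraries have to be stated. The libraries labelled dorsal competent telogen did not look like the other competent telogen libraries: Krtap genes held 13.1% of all FPKM in them against 0.709% and 0.794% in chin and ventral competent telogen. They matched chin late anagen, as limma called 2 of 21257 genes between these groups (0.00941%) and 0 of 56 Krtap genes. Of these 56, 0 had an unadjusted p under 0.05, and their fitted log2 differences lay between -0.26 and 0.12. Second, the libraries labelled ventral early anagen had a summed FPKM of 20.4 to 30.5 over 5 proliferation genes (Mki67, Top2a, Ccnb1, Cdk1 and Bub1) and of 16.8 to 17.8 over 5 melanocyte genes, which lay near the refractory telogen libraries (26.0 to 41.2 and 9.98 to 22.5) and away from early anagen of the chin (174 to 227 and 183 to 326) and the dorsum (304 to 306 and 706 to 750). Last, the ventral refractory telogen libraries had the largest scatter over counting error of any pair in a group, with a median ratio of 19.5 over 794 genes. Over the Krtap genes alone their median log2 range was 0.42, the highest of the groups of 2 libraries, before chin mid anagen at 0.36. It was 0.70 in chin refractory telogen and 0.48 in ventral competent telogen. These had 3 libraries each, and a range grows with the number of libraries. The chin and ventral competent telogen libraries had proliferation sums of 191 to 214 and 201 to 239 FPKM, above all late anagen libraries. The tests, correlations and most tallies resting on the first 2 groups are given with and without them or with another group in their place. The tally of the domain with the highest mean is given only as labelled, as are levels and shares. Counts made without a group or with another in its place are given without the share of all genes. They show only whether the members' own calls held. The part of the library differences above in the results was not tested.

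Krtap genes took up to 15.7% of all FPKM in a skin library. In the chin, the share was 0.709% ± 0.018 (SD, n = 2) at competent telogen, 2.21% ± 0.11 (SD, n = 2) at early anagen and 14.3% ± 2.0 (SD, n = 2) at mid anagen, and was 13.1% ± 0.13 (SD, n = 2), 8.26% ± 0.12 (SD, n = 3) and 3.93% ± 0.47 (SD, n = 3) at late anagen, catagen and refractory telogen. In ventral skin it was 0.794% ± 0.11 (SD, n = 3), 4.19% ± 0.077 (SD, n = 3), 14.5% ± 0.009 (SD, n = 2), 9.07% ± 0.17 (SD, n = 3), 10.1% ± 1.1 (SD, n = 2) and 11.1% ± 0.58 (SD, n = 2) in the same order. In dorsal skin it was 0.152% ± 0.017 (SD, n = 2) at early anagen, the lowest of all groups, and 6.56% ± 0.17 (SD, n = 3), 8.68% ± 0.093 (SD, n = 3), 8.91% ± 0.15 (SD, n = 2) and 8.92% ± 0.059 (SD, n = 2) from mid anagen to refractory telogen. Refractory telogen was thus as high as catagen in dorsal skin and below it in the chin, with no overlap of chin libraries. Since FPKM are shares of 1 library, and fewer hair shaft cells cannot be told apart from less RNA per cell in whole skin, these values are shares and not amounts.

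**Figure D1:**
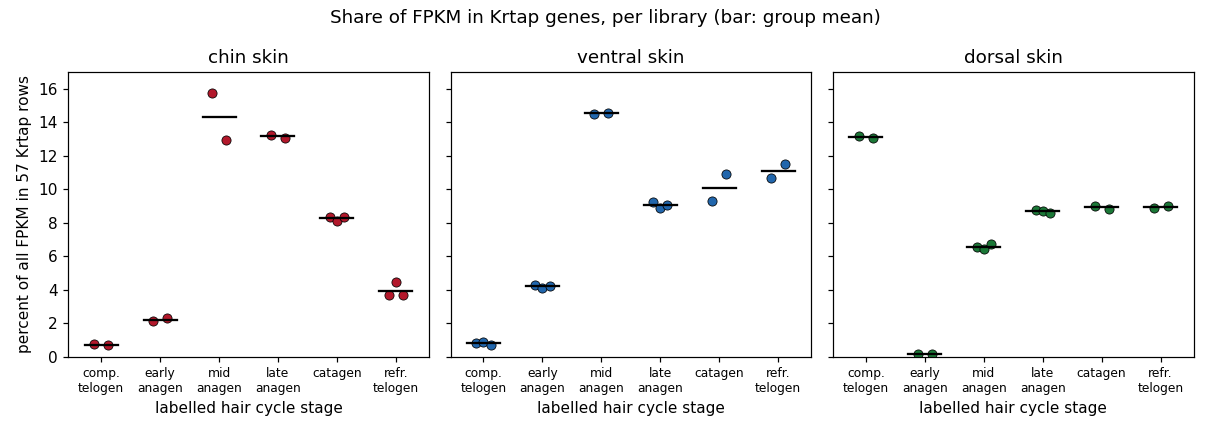
Percent of all FPKM held by the 57 Krtap rows, for each of the 43 skin libraries (points) by domain and labelled stage, with bars at group means. The dorsal competent telogen libraries sit at 13.0% and 13.1%, and the dorsal early anagen libraries at 0.139% and 0.164%.

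A few genes carried much of the signal, as the 5 highest of each group held 32.4% to 55.5% of its Krtap FPKM. Krtap7-1 was the highest member in 10 of the 18 groups and Krtap22-2 in 6. Krtap7-1, which codes for a small protein with 29.9% glycine and tyrosine codons, had the highest mean over the 43 libraries, at 11018 FPKM, followed by the high glycine-tyrosine genes Krtap22-2 at 9039 FPKM and Krtap8-1 at 4895 FPKM. Krtap7-1 ranged from 211 FPKM in dorsal early anagen to 19553 FPKM in dorsal catagen. At the other end, Krtap13 did not pass the filter on low values and reached at most 0.14 FPKM, and Krtap5-3, Krtap9-5, Krtap27-1 and Krtap29-1 had means of 7.91, 10.8, 11.8 and 18.2 FPKM. Of the 57 members 56 were tested. By groups, 21 members had their highest mean in chin mid anagen, 10 in ventral mid anagen and 10 in ventral refractory telogen, and dorsal early anagen was the lowest group of 54 of the 56. Without the dorsal competent telogen and ventral early anagen groups the first 3 of these counts were again 21, 10 and 10, chin late anagen was highest for 10 in place of 5, and dorsal early anagen was lowest for 55.

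**Figure D2:**
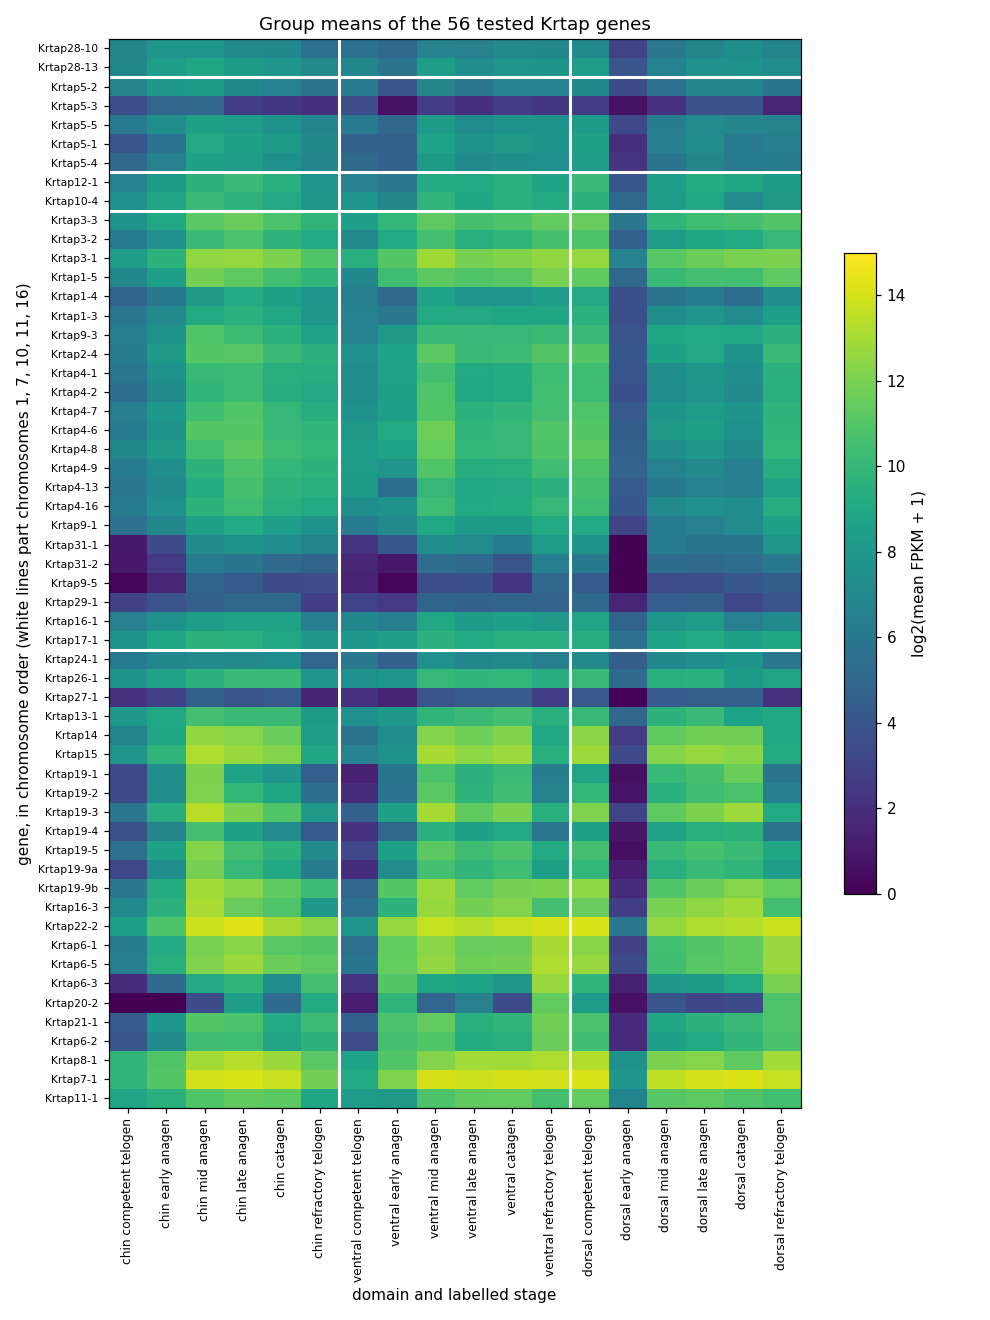
Group means of the 56 tested Krtap genes, as log2(mean FPKM + 1), in chromosome order (rows) over the 18 groups (columns). Dorsal early anagen is dark along nearly all rows, and Krtap20-2, near the foot of chromosome 16, is bright in few groups while its neighbors Krtap22-2 and Krtap7-1 are bright in most.

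The highest member of each subfamily differed widely in level. Among high sulfur genes, Krtap3-1 led subfamily 3 with a mean of 3427 FPKM over the 43 libraries, Krtap15 was at 3708, Krtap14 at 2343, Krtap1-5 at 1591 and Krtap11-1, a gene of the hair cortex, at 1573. Among high glycine-tyrosine genes, Krtap6-5 led subfamily 6 at 3277 FPKM, and Krtap16-3 and Krtap19-9b were at 2909 and 2906. Krtap20-2 and Krtap21-1 of that class were at 359 and 1137 FPKM. The ultra-high sulfur leaders were Krtap4-6 at 956, Krtap17-1 at 479, Krtap10-4 at 454 and Krtap5-1 at 177 FPKM. High sulfur leaders also lay in and below that range, such as Krtap9-3 at 682, Krtap12-1 at 454, Krtap24-1 at 108 and Krtap31-1 at 106 FPKM, so that the classes overlapped in level. The leaders differed in where they peaked: Krtap14, Krtap15, Krtap16-3, Krtap17-1, Krtap19-9b and Krtap5-1 had their highest group mean in chin mid anagen, Krtap3-1 and Krtap4-6 in ventral mid anagen, Krtap11-1 and Krtap13-1 in ventral catagen, and Krtap6-5, Krtap20-2, Krtap21-1, Krtap1-5 and Krtap31-1 in ventral refractory telogen. Krtap31-1 ranged from a mean of 0.07 FPKM in dorsal early anagen to 298 FPKM in ventral refractory telogen.

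The make-up of the Krtap FPKM also moved with stage. The high glycine-tyrosine genes held 26.7% of it in chin competent telogen, 12.4% in ventral competent telogen and 22.8% in dorsal early anagen, where the total was low, and between 37.7% and 61.7% in all other groups. Ventral early anagen was the highest at 61.7% (60.3% to 63.9% over its libraries), and the ventral and dorsal refractory telogen groups, the next highest, were at 55.1% and 57.3%. The 16 ultra-high sulfur genes, of which 8 belong to subfamily 4, held 37.7% in ventral competent telogen and 2.5% in dorsal catagen. Krtap7-1 alone, counted as high sulfur, held 13.3% in chin competent telogen and 21.0% in dorsal catagen. The class shares therefore depend on the limits chosen. Subfamily 4 by itself went from 26.8% of the Krtap FPKM in ventral competent telogen (up to 27.6% in a library) to 1.32% in dorsal catagen, and 4 genes rich in both cysteine and glycine were at 5.28% in chin competent telogen and at most at 0.678% in the groups from mid anagen on. The pattern of the subfamilies at late stages was opposite in subfamilies 6 and 19: subfamily 6 held 22.5% and 21.8% in ventral and dorsal refractory telogen against 7.49% and 7.44% in catagen, and subfamily 19 held 5.04% and 4.90% against 13.6% and 21.9%.

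**Figure D3:**
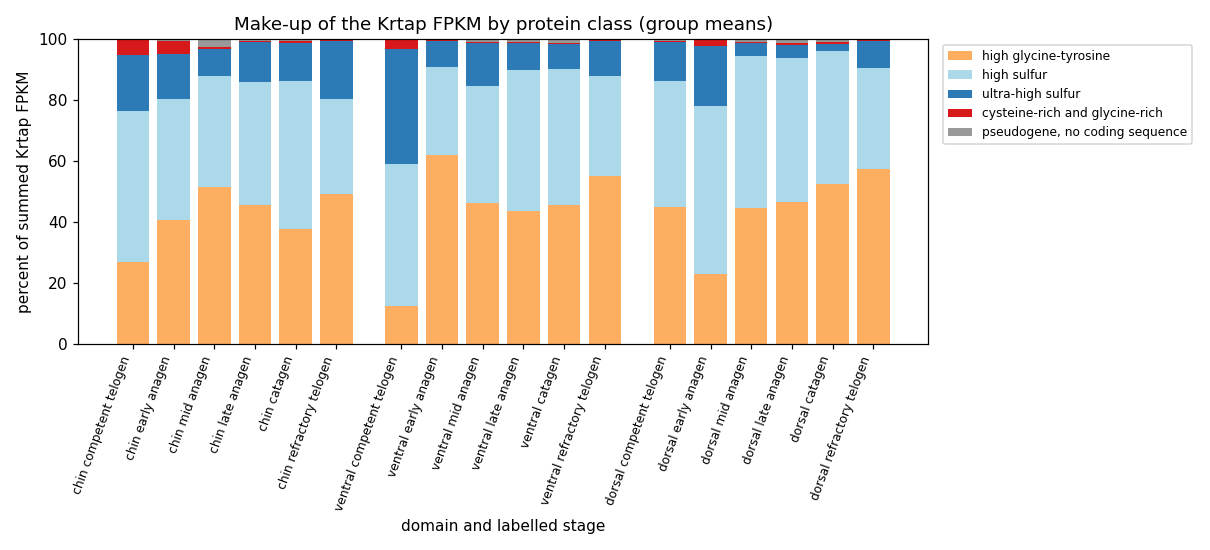
Percent of summed Krtap FPKM held by each class, from group means, in stacked bars for the 18 groups. The high glycine-tyrosine part is 12.4% in ventral competent telogen and 61.7% in ventral early anagen.

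The step from competent telogen to early anagen asks what hair growth brings on. Consecutive steps share the group between them, so that their values are not independent. In the chin, 52 of the 56 tested members rose and 0 fell, against 1.26% of all genes that rose (limma, 21257 genes, adjusted p under 0.05). The median log2 difference was 1.36 over members and 0.00 over all genes tested. The largest was in the pseudogene Krtap19-9a, from 8.70 ± 0.97 to 164 ± 23 FPKM (SD, n = 2 in each), a log2 difference of 4.09 (SE 0.50, adjusted p = 4.4e-06), and its annotated length of 166 bases is shorter than the fragments, so that its FPKM is uncertain. Those not called were Krtap20-2, which was listed at 0 in all 4 libraries, Krtap24-1, Krtap27-1 and Krtap28-10. From early to mid anagen 51 rose and 0 fell, against 3.66% of all genes that rose. Krtap19-2, a high glycine-tyrosine gene, was at 139 and 190 FPKM in early anagen and at 5286 and 3613 FPKM in mid anagen, a log2 difference of 4.74 (SE 0.20, adjusted p = 2.7e-16). The groups were far apart, and the 5 members not called included all 4 that were rich in both cysteine and glycine.

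In ventral skin, 34 members rose and 15 fell from the libraries labelled competent telogen to those labelled early anagen, against 13.2% and 29.3% of all genes. Scaling by the median of ratios gave 36 and 9. In the first count the share of members that fell was below that of all genes, so that the falls cannot be read as particular to the members. Krtap6-3 was at 4.62, 2.87 and 3.73 FPKM and then at 2224, 2013 and 2010 FPKM, a log2 difference of 8.79 (SE 0.28, adjusted p = 4.4e-20), while Krtap5-3 fell by 2.87 (SE 0.20, adjusted p = 2.1e-12), from 11.1, 13.1 and 7.87 FPKM to 0.41, 0.70 and 0.62 FPKM. These libraries did not overlap in either gene. Members that fell included Krtap5-2, Krtap28-13 and Krtap10-4. With ventral mid anagen taken in place of the early anagen libraries, added after seeing the data, 55 rose and 1 fell, and Krtap20-2 rose by 3.70 on the log2 scale. These counts are given without the share of all genes. From ventral early to mid anagen 53 rose and 2 fell, against 16.8% and 25.6% of all genes. Those that fell were Krtap20-2, by 4.92 (SE 0.22, adjusted p = 5.2e-16), and Krtap6-3. The direction of Krtap20-2 into mid anagen therefore depended on which of the earlier groups was taken. Krtap19-2 rose by 5.46 (SE 0.18, adjusted p = 9.0e-19).

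In dorsal skin, all 56 tested members fell from the libraries labelled competent telogen to early anagen, against 8.24% of all genes that fell, and all 56 rose from early to mid anagen, against 9.09%. Over all genes the median difference was 0.25 and -0.18 on the log2 scale, opposite to the members' medians of -6.28 and 4.31. Krtap19-9b was at 5621 and 5460 FPKM in the libraries labelled competent telogen and at 3.65 and 1.88 FPKM in early anagen, a fall of 10.6 (SE 0.20, adjusted p = 6.3e-26). Krtap16-3 was at 12.0 FPKM and listed at 0 in early anagen, and at 3977, 3799 and 4562 FPKM in mid anagen (log2 difference 10.2, SE 0.50, adjusted p = 1.4e-15). With dorsal refractory telogen in place of the competent telogen libraries, added after seeing the data, all 56 were again lower in early anagen. That count is given without the share of all genes.

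From mid anagen on, the stages differed less and the direction depended on the domain. In the chin 15 members rose and 11 fell from mid to late anagen, against 7.43% and 12.3% of all genes. Krtap20-2 went from 8.47 and 11.1 FPKM to 329 and 321 FPKM (log2 difference 4.93, SE 0.24, adjusted p = 6.4e-14), and Krtap19-1 fell by 3.34 (SE 0.25, adjusted p = 1.2e-10) from 4926 and 3454 FPKM to 396 and 416 FPKM. The 11 that fell held 6 of the 7 genes of subfamily 19, and the 15 that rose held 6 genes of subfamily 4. Leaving out the first late anagen library left 12 calls, and leaving out the second left 17. From late anagen to catagen 30 fell and 0 rose, against 4.19% of all genes that fell, with Krtap20-2 the largest at -3.10 (SE 0.22, adjusted p = 5.7e-11).

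In ventral skin 3 members rose and 35 fell from mid to late anagen, against 12.6% and 11.6% of all genes. Krtap4-2 fell by 1.91 (SE 0.13, adjusted p = 2.0e-11) from 1844 ± 228 (SD, n = 2) to 489 ± 27 FPKM (SD, n = 3), and Krtap20-2 rose by 1.63 (SE 0.22, adjusted p = 2.9e-06). From late anagen to catagen 5 rose and 4 fell, against 2.83% and 3.10%. Krtap20-2 fell by 3.08 (SE 0.22, adjusted p = 2.3e-10), and Krtap5-2 rose by 0.70 (SE 0.19, adjusted p = 0.020), a call that was lost without any 1 of the ventral late anagen libraries 2 or 3 or of the catagen libraries. Scaling to TPM gave 1 and 4 calls, and scaling by the median of ratios 2 and 4.

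In dorsal skin 23 members rose and 1 fell from mid to late anagen, against 1.15% and 1.53% of all genes. Krtap5-3 rose by 1.58 (SE 0.20, adjusted p = 3.4e-06), from 4.30, 3.75 and 2.36 FPKM to 12.5, 12.3 and 11.6 FPKM, while Krtap20-2 was the gene that fell, by 0.73 (SE 0.20, adjusted p = 0.037), and lost its call when any 1 of the 6 libraries was left out. From late anagen to catagen 7 rose and 18 fell, against 20.0% and 18.7%, so that the share of members that rose was below that of all genes. Krtap6-3 rose by 1.02 (SE 0.31, adjusted p = 0.010), a call that was lost without the first catagen library, and Krtap10-4, an ultra-high sulfur gene within Tspear, fell by 1.74 (SE 0.17, adjusted p = 2.4e-09).

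From catagen to refractory telogen members were called in both directions in every domain. In the chin 4 rose and 43 fell, against 30.5% and 17.5% of all genes; in ventral skin 22 rose and 15 fell, against 14.9% and 18.8%; and in dorsal skin 28 rose and 17 fell, against 19.1% and 24.5%. In the chin the share of members that rose was below that of all genes. In ventral and dorsal skin the shares that fell were only a little above those of all genes. No libraries are shared between the 3 domains. The 4 that rose in the chin, Krtap6-2, Krtap6-3, Krtap20-2 and Krtap21-1, rose in all 3 domains, and all are high glycine-tyrosine genes within chr16:89084015-89420111. The 12 that fell in all 3 were Krtap12-1, Krtap14, Krtap15, Krtap16-3, Krtap24-1, Krtap27-1 and 6 genes of subfamily 19. Ventral and dorsal skin shared 19 risers, 86.4% of the ventral and 67.9% of the dorsal calls, and Krtap26-1 was the 1 gene called in opposite directions between them. The overlap of calls between domains was counted over the members only. It therefore cannot be read as particular to them.

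**Figure D4:**
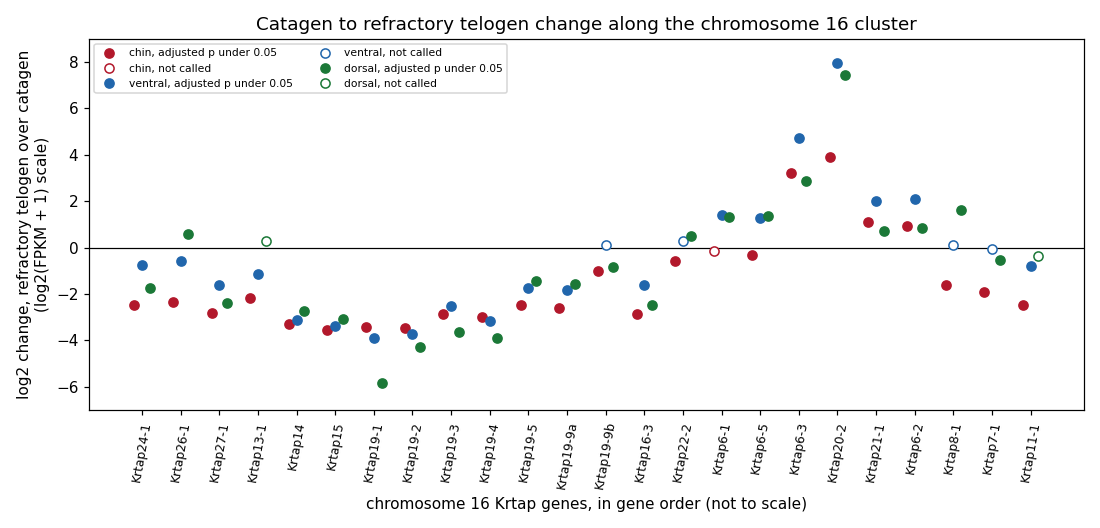
Log2 change from catagen to refractory telogen on the log2(FPKM + 1) scale for the 24 tested chromosome 16 Krtap genes, in gene order, for the 3 domains, with filled points for an adjusted p under 0.05. The 14 genes up to Krtap16-3 lie below 0 but for 3 points, and Krtap20-2 is the highest point in each domain.

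Among the 14 tested genes from Krtap24-1 to Krtap16-3, 14 fell in the chin, 13 in ventral and 12 in dorsal skin, with median log2 differences of -2.85, -1.79 and -2.43. Among the 10 from Krtap22-2 to Krtap11-1, 4, 6 and 8 rose and 5, 1 and 1 fell, with medians of -0.24, 1.34 and 1.10. In the chin, more of these genes fell than rose, and Krtap8-1, Krtap7-1 and Krtap11-1 at the far end fell by 1.60, 1.93 and 2.49 on the log2 scale. The boundary between the stretches was set after the values had been seen, and the difference between them was not tested. Krtap19-1 was at 246, 232 and 236 FPKM in chin catagen and at 24.2, 17.1 and 23.4 FPKM in refractory telogen, and in dorsal skin it fell by 5.86 (SE 0.25, adjusted p = 1.2e-16), from 3082 and 3180 FPKM to 55.7 and 50.5 FPKM. Krtap15 fell by 3.54 in the chin (SE 0.33, adjusted p = 6.3e-10), from 4822, 4976 and 4760 FPKM to 316, 756 and 301 FPKM. On chromosome 11, 0 of 23 members rose in the chin, while 16 and 18 rose in ventral and dorsal skin, and 7 of the 8 genes of subfamily 4 were among the 19 genes that rose in both.

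Krtap20-2 was the member that rose most in every domain, and Krtap6-3 came next in chin and ventral skin. Krtap20-2 was listed at 0 in both chin competent telogen and both chin early anagen libraries, and was 38.97, 37.98 and 34.49 FPKM in chin catagen against 617.74, 440.8 and 703.86 FPKM in refractory telogen (log2 difference 3.92, SE 0.20, adjusted p = 4.1e-15). In ventral skin it was 10.2 and 9.57 FPKM in catagen against 3140 and 2272 FPKM (7.94, SE 0.24, adjusted p = 2.0e-19), and in dorsal skin 11.3 and 8.27 against 1862 and 1848 FPKM (7.44, SE 0.24, adjusted p = 3.9e-19). Refractory telogen libraries of every domain were above all catagen libraries. The libraries labelled ventral early anagen, at 1032, 866 and 807 FPKM, were the only group outside refractory telogen above the chin late anagen libraries, which were at 329 and 321 FPKM. Krtap21-1 was at 599, 551 and 589 FPKM in chin catagen and at 1275, 1053 and 1464 FPKM in refractory telogen (1.11, SE 0.18, adjusted p = 8.4e-06). Its ventral libraries went from 834 and 994 to 3579 and 3642 FPKM, and its dorsal libraries from 1097 and 1186 to 1840 and 1863 FPKM. Krtap6-3 was 153.92, 156.61 and 165.95 FPKM in chin catagen against 1632.33, 1120.44 and 1823.48 FPKM, and rose by 4.74 in ventral (SE 0.34, adjusted p = 1.9e-11) and 2.85 in dorsal skin (SE 0.34, adjusted p = 7.7e-08).

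**Figure D5:**
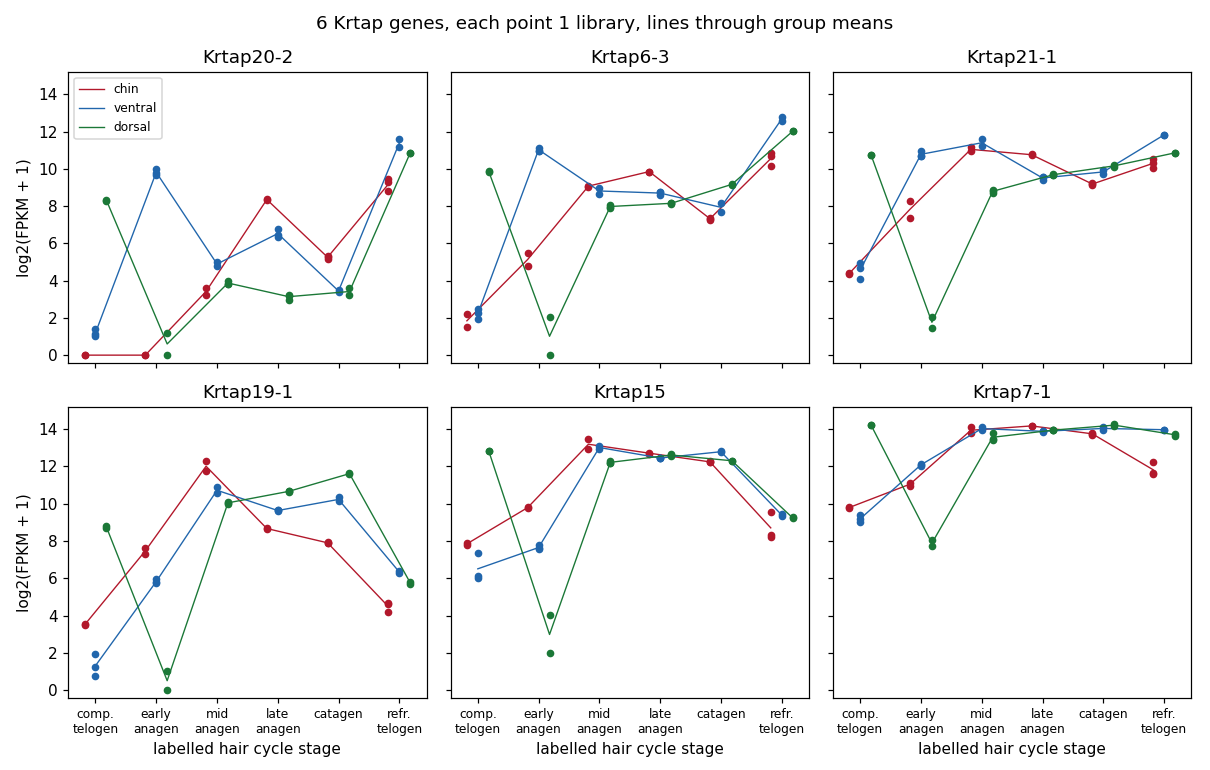
log2(FPKM + 1) of 6 Krtap genes in each library (points), by stage and domain, with lines through group means. Krtap20-2, Krtap6-3 and Krtap21-1 are higher at refractory telogen than at catagen, and Krtap19-1 and Krtap15 are lower. Krtap7-1 is lower at refractory telogen in the chin (log2 difference -1.93) and, by less, in dorsal skin (-0.52).

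Markers moved with the refractory telogen libraries. The summed proliferation genes were 26.0 to 41.2 FPKM in these 7 libraries against 146 to 245 in the catagen libraries, the melanocyte genes were 9.98 to 22.5 against 341 to 1010, and all 5 genes of each list fell in all 3 domains. The skeletal muscle genes rose in 5, 5 and 2 of 5 in chin, ventral and dorsal skin, and summed to 2092 to 2218 FPKM in chin catagen and 8343 to 12767 in chin refractory telogen, 173 to 188 and 608 to 718 in ventral skin, and 1532 to 1582 and 2362 to 2497 in dorsal skin. Adipocyte genes rose in 4 and 5 of 5 in chin and ventral skin and fell in 3 of 5 in dorsal skin. Macrophage genes rose in 5, 5 and 1 of 5, with 1 that fell in dorsal skin, and basal keratinocyte genes rose in 4, 3 and 3 of 4. The 5 interfollicular epidermis genes, such as Krt1 and Krt10, rose in 4, 5 and 3 of 5. The part of these markers in the results above was not tested. Over the 43 libraries, which share depth and the sum over all genes, the Spearman correlation of members with the summed 14 hair keratins had a median of 0.70 over the 56 tested members and was above 0.5 in 43 of them. The lowest values were 0.055 for Krtap20-2, 0.11 for Krtap6-3, 0.30 for Krtap6-2, 0.32 for Krtap5-3 and 0.36 for Krtap21-1, and the highest was 0.92, for Krtap19-5. With the summed proliferation genes the median was -0.38 and ranged from -0.90 for Krtap20-2 to 0.46 for Krtap5-3. Over the 38 libraries without the dorsal competent telogen and ventral early anagen groups, chosen after seeing the data, the median with the hair keratins was 0.67 and 40 members were above 0.5. The lowest were then Krtap5-3 at 0.20, Krtap20-2 at 0.23 and Krtap6-3 at 0.30, while Krtap6-2 and Krtap21-1 were no longer among the lowest 5. With the proliferation genes the median was then -0.60. Of the 9 type I hair keratins, which form the acidic partner of the shaft filaments, 9, 4 and 3 fell from catagen to refractory telogen in chin, ventral and dorsal skin and 0, 0 and 2 rose. Of the 5 type II hair keratins in the tables, the basic partners, 4, 2 and 0 fell and 0, 0 and 3 rose, and in dorsal skin their sum was 1656 to 1754 FPKM in catagen and 2726 to 2922 in refractory telogen. Of the 9 inner root sheath genes 9, 5 and 3 fell and 0, 0 and 3 rose.

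Differences among domains at a single stage were common, as they were over all genes. With the limma F-test, all 56 members differed at competent telogen, against 54.0% of all genes, and all 56 at early anagen, against 51.6%. At mid anagen 51 differed, against 38.1%, and at late anagen 38, against 20.8%. At catagen 47 differed, against 42.9%, and at refractory telogen 54, against 42.2%. The highest mean was in dorsal skin for 55 members at competent telogen, in the chin for 46 at late anagen, and in ventral skin for all 56 at refractory telogen. At the other stages it was split between domains. Chin and ventral skin were highest for 30 and 26 members at early anagen and for 29 and 26 at mid anagen. At catagen chin, ventral and dorsal skin were highest for 20, 19 and 17. No tally over all genes is given beside these. The competent telogen tally rests on the libraries that matched chin late anagen, and the early anagen tally on those labelled ventral early anagen. Neither is given without them. At refractory telogen 27 of the 56 were called higher in ventral than in dorsal skin, against 1722 of 21257 genes. There 38 were called lower in chin than in dorsal skin, against 1618 of 21257 genes. Without the dorsal competent telogen libraries 36 members differed between the other 2 domains at competent telogen. Without the ventral early anagen libraries 55 differed at early anagen, both added after seeing the data. Both counts are given without the share of all genes, so that they cannot be read as particular to the members. Krtap4-6, of subfamily 4, was at 272 ± 29 FPKM (SD, n = 3) in dorsal mid anagen, 3276 ± 212 (SD, n = 2) in ventral and 2089 ± 814 (SD, n = 2) in chin mid anagen. The ventral over dorsal log2 difference was 3.59 (SE 0.23, adjusted p = 1.5e-12). Krtap22-2 differed less, at 6422 ± 69 FPKM (SD, n = 3), 13364 ± 323 (SD, n = 2) and 14997 ± 1697 (SD, n = 2). At late anagen Krtap20-2 was at 7.83 ± 0.86 FPKM in dorsal skin (SD, n = 3), 91.6 ± 15 in ventral (SD, n = 3) and 325 ± 5.8 in chin skin (SD, n = 2). At catagen the order of Krtap19-1 was the reverse, with 3131 ± 69 FPKM in dorsal (SD, n = 2), 1204 ± 129 in ventral (SD, n = 2) and 238 ± 7.3 in chin skin (SD, n = 3), and the chin was lower than the dorsum by a log2 difference of -3.71 (SE 0.23, adjusted p = 1.7e-13). At refractory telogen ventral and dorsal Krtap20-2 did not pass the test (0.53, SE 0.24, adjusted p = 0.16). The course over the stages differed between domains in all 56 members by the interaction of domain and stage, against 73.3% of all genes.

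Ear skin was compared with dorsal competent telogen skin, which asks how ear skin at rest differs from trunk skin at rest. Krtap genes summed to 427 and 422 FPKM in the ear skin libraries, and to 136856 and 135276 FPKM in the dorsal ones. A gene was tested here if it had at least 0.5 FPKM in at least 2 of the 7 libraries. Krtap5-3, Krtap6-3, Krtap9-5, Krtap19-9a, Krtap27-1, Krtap29-1 and Krtap31-2 were below 0.5 FPKM in both ear skin libraries and passed through the dorsal libraries alone. The direction of these genes was therefore fixed by the filter. With them counted, all 56 tested members were lower in ear skin, against 14.6% of all 19299 genes tested. The tissue markers moved with this difference: the interfollicular epidermis genes were higher in ear skin in 5 of 5, basal keratinocytes in 4 of 4 and macrophages in 5 of 5, and skeletal muscle genes were lower in 5 of 5 and inner root sheath genes in 9 of 9. Over all genes, 8619 of 19299 were called higher in ear skin, and the median log2 difference was 0.33. The epidermis genes summed to 11348 to 12274 FPKM in ear skin and 425 to 436 in the dorsal libraries, and their part in the result was not tested. The highest in ear skin was Krtap3-2, a high sulfur gene, at 50.1 and 60.9 FPKM, followed by Krtap7-1 at 39.0 and 41.7 and Krtap3-3 at 27.2 and 35.4 FPKM. Krtap7-1 was at 18915 and 18948 FPKM in the dorsal libraries, so that the groups lay far apart (log2 difference -8.84, SE 0.056, adjusted p = 1.1e-08). Krtap19-9a was listed at 0 in both ear skin libraries. Since the dorsal libraries are those that matched chin late anagen, ventral competent telogen was taken in their place after seeing the data, and 52 members were lower in ear skin and 0 higher. With dorsal refractory telogen in their place, 56 were lower. Both counts are given without the share of all genes, so that they are not set apart from the change over all genes. In the ear cartilage/muscle complex all 57 members were listed at 0 in all 3 libraries, and 51 of 56 were called lower than in ear skin, against 38.5% of all genes. The skeletal muscle genes summed to 11890 to 14014 FPKM there against 803 to 850 in ear skin, and the 9 type I hair keratins were at 0.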

How the data were processed

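RNA of whole skin and ear tissues had been made into SMART-seq2 libraries from samples with a RIN above 8 and sequenced in pairs. The authors aligned reads to mm10 with the GENCODE annotation vM8, quantified them with RSEM 1.2.25, corrected batches that they do not name, and deposited FPKM values, which are expression levels scaled to length and depth. FPKM hold no counts, so limma 3.58.1 in R 4.3.3 was used on log2(FPKM + 1) with a pseudocount of 1, for genes of at least 0.5 FPKM in at least 2 libraries, with a variance trend and Benjamini-Hochberg adjustment over all genes at 0.05. A fold on this scale understates changes of low genes. The 43 skin libraries were fitted as 18 groups and the 7 ear libraries as 3 groups. A ventral catagen library has a location tag that reads ear rostral and was grouped by its source name and title. 

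The members and lists were chosen with earlier results of these data known. Genes were named by a rule: the member of highest mean in each subfamily, the largest change in each direction of each comparison, Krtap16-3, and the 5 lowest correlations with hair keratins, and further genes were chosen after their values were seen. No other tool was run. On simulated data limma recovered 79% of genes changed by 1 log2 unit and 95% of those changed by 2 over 19547 genes, with 8 false calls. Depth came from FPKM steps of 10498 genes with a single transcript, and 1 fragment was worth 0.11 FPKM for the median member at median depth. On simulated data the method returned depths close to those put in, and it covers counting error only. Alternatives were a pseudocount of 0.1, no filter, a minimum of 5 FPKM, TPM, the median of ratios, a replicate block and each library left out. Positions came from GENCODE on GRCm38, promoters from RefSeq GRCm38.p6, and descriptions were made with Python 3.11.15, pandas and scipy. Protein sequences were not used here.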

Additional observations from a re-analysis of the deposited data

Results flagged for a closer look

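The change over the stages differed between domains in 56 of 56 tested Krtap members, by the limma interaction of domain and stage, against 73.3% of all genes. Without the dorsal competent telogen and ventral early anagen groups, a choice made after seeing the data, 56 differed as well. That count is given without the share of all genes. No group had 4 or more libraries, so that outlying libraries were not tested.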

How the results depend on the processing

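For the 24 counts of members called, 7 of 317 recalculated values moved by more than 1.5 times. In ventral skin from late anagen to catagen 9 members were called, 5 after rescaling to TPM and 4 to 6 with 1 library left out. Without the dorsal competent telogen group 36 members differed among domains at competent telogen, a count given without the share of all genes. From chin mid to late anagen 12 to 22 of 26 calls were made with 1 library left out. For single genes, 15 of 296 recalculated values lost the call and 1 reversed, Krtap20-2 from ventral early to mid anagen, with 3.70 for ventral competent telogen in place of early anagen. The cause was not tested.

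With the replicate number as a block the counts ran from 7 in ventral skin from late anagen to catagen (3 higher and 4 lower) to 56, and no count moved by more than 1.5 times. The numbers pair nothing in the labels. Deviations of libraries with equal numbers correlated between -0.17 and 0.16 over 327 pairs, and 16 of 43 libraries correlated best with 1 of their own number. No paired analysis was possible for the ear comparisons because the ear skin columns are numbered 2 and 3 while the labels number those libraries 1 and 2, so that no column could be given its number. Depth limits the low members, and 2 or 3 libraries a group limit the rest.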
